A study of Mus musculus with 6 samples.

Results

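Folding of secreted and membrane proteins takes place in the endoplasmic reticulum (ER), and the 10 genes described here encode chaperones and folding enzymes of that compartment. They are Hspa5, Hyou1, Dnajc3, Sdf2l1, Hsp90b1, Calr, Pdia4, Pdia6, Manf and Creld2, and they are 10 of the 16058 genes listed in the data. The set was named as ER chaperones with earlier results of these data known. All 10 were found and all 10 passed the filter on low values (at least 1 FPKM in at least 2 of 6 libraries), as did 11616 genes in all. FPKM is a count of sequenced fragments divided by transcript length and by library size, so levels can be compared between genes. Changes are given as differences of log2(FPKM + 1).

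Macrophages were sorted from the spleens of C57BL/6 mice labelled as 6-8 weeks old. The labels name 3 gates by the surface proteins Ly6c and F4/80, which are Ly6chiF4/80lo, Ly6cloF4/80lo and Ly6cloF4/80hi. Each gate was sequenced once in T-ALL (T cell acute lymphoblastic leukemia, day 15) and once in the normal state (day 0), so there were 3 T-ALL and 3 normal libraries and no replicate within a gate and state. The leukemia was a transplant of 1000000 GFP+ cells per mouse, taken from leukemic mice and given without irradiation, so the hosts kept their own blood-forming cells. Neither the lesion that drives the leukemia, nor how many mice were pooled, nor whether the gates of 1 state came from separate mice is given in the labels. The p-values therefore rest on the spread among sorted fractions, which may be technical.

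The libraries held an estimated 6910000 to 8850000 fragments each. Adgre1, which encodes F4/80, was at 47.3 to 234 FPKM in the T-ALL libraries and at 86.6 to 529 FPKM in the normal ones, highest in Ly6cloF4/80hi of either state. Ly6c2 was at 1405 FPKM in the T-ALL and 482 FPKM in the normal Ly6chiF4/80lo library, and at 11.8 to 21.4 FPKM in the 4 Ly6clo libraries. Cd68, Csf1r, Itgam and Ptprc were present in all 6, though Itgam and Ptprc are not particular to macrophages. Markers of other cells were present too. None of the 9 plasma cell, 6 B cell, 6 T cell, 7 erythroid, 7 myeloid progenitor or 6 neutrophil markers in the files was listed at 0 in any library. In the gate order above, B cell markers summed to 1122, 2152.5 and 1716 FPKM in T-ALL and 1279, 3104 and 1616 FPKM in normal. The 7 markers on the macrophage list summed to 905, 814 and 1414 FPKM in T-ALL and 1779, 928 and 3179 FPKM in normal. The B cell sum was thus the higher one in each T-ALL library and in normal Ly6cloF4/80lo. Plasma cell markers, such as Jchain, are given for each library because plasma cells carry a large ER. Their summed level was 14687 FPKM in T-ALL and 5748 FPKM in normal Ly6chiF4/80lo, 1699 FPKM in T-ALL and 755 FPKM in normal Ly6cloF4/80lo, and 1623 FPKM in T-ALL and 393 FPKM in normal Ly6cloF4/80hi. Like the chaperones described next, they were higher in T-ALL in each gate and highest in Ly6chiF4/80lo, but the order of the Ly6clo gates differed, as given below. Their part in the chaperone levels was not tested.

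As background, Hspa5 (also called BiP or GRP78) is the Hsp70 of the ER and binds unfolded chains together with its J-domain partners and nucleotide exchange factors. It also holds the stress sensors ATF6, IRE1 and PERK inactive. When unfolded protein accumulates, these sensors start the unfolded protein response, in which cleaved ATF6 and the spliced form of XBP1 raise the transcription of chaperone genes. ATF6 acts with the CCAAT-binding factor NF-Y at the ER stress response element, a CCAAT box and a CCACG box separated by a spacer of 9 bases. Secretory cells such as plasma cells keep this programme high as part of their normal function.

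Most of the chaperone promoters in the table hold that element, so it is shown before the levels. An exact match to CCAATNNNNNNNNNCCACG was looked for on both strands of the RefSeq promoters of the GRCm38.p6 assembly, from 250 bases before to 50 bases after each gene's start. Of the 10 genes 8 had a promoter in the table, and 6 of those 8 held the element, against 37 of all 27025 genes with a promoter (0.137%). Counted by promoter, the element was in 39 of 32851 (0.119%). CCAAT alone was in 37.4% and CCACG alone in 32.8% of all promoters, and all 8 chaperone promoters held both. The element was looked for because it is known from chaperone genes, so these shares describe the set and do not test it. The 300 bases of the Hspa5 promoter, the best studied of the set (chr2:34771840-34772139, + strand), follow with the exact element in capitals.
Hspa5: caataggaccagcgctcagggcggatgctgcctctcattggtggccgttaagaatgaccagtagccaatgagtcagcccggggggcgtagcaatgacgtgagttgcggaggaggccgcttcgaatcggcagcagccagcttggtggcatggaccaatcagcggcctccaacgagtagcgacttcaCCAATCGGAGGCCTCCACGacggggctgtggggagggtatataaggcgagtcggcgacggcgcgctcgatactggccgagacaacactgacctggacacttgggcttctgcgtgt

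Shorter windows of the other 5 promoters with an exact element show how the spacer differs between genes while both boxes are fixed by the search. Each window is read in the direction of its gene, and the element is in capitals with 10 bases on either side.
Hsp90b1: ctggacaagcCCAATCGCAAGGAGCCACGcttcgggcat
Pdia6: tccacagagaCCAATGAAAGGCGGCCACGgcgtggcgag
Dnajc3: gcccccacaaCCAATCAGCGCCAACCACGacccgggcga
Creld2: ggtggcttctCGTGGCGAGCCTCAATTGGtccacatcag
Calr: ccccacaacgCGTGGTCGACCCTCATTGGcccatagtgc
The windows lie at chr10:86705628-86705666 (- strand) for Hsp90b1, chr12:17266481-17266519 (+ strand) for Pdia6, chr14:118937817-118937855 (+ strand) for Dnajc3, chr15:88819510-88819548 (+ strand) for Creld2 and chr8:84847065-84847103 (- strand) for Calr. In Creld2 and Calr the element lies in the opposite orientation to the gene, so it reads there as CGTGG followed by ATTGG. The Hsp90b1 promoter held 2 exact elements, of which the one farther from the start is shown. Counted from the start, the 5′ end of the element printed lies 65 bases upstream in Hspa5, 98 in Pdia6, 105 in Dnajc3, 126 in Creld2, 162 in Calr and 212 in Hsp90b1. The closest match differed from the motif at 1 base in Pdia4 and at 2 in Sdf2l1. Manf and Hyou1 are named without a promoter. Of the 4 genes that rose between states, described next, Creld2 and Hsp90b1 hold the exact element and Pdia4 does not. A match describes letters only and says nothing about binding in these cells.

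Measured in FPKM, chaperone transcripts were higher in T-ALL than in normal in each of the 3 gates for all 10 genes. By the test 4 of them rose, Creld2, Manf, Hsp90b1 and Pdia4. All 10 were highest in the T-ALL Ly6chiF4/80lo library and lowest in the normal Ly6cloF4/80lo library. Of all genes 11.8% were highest in that T-ALL library, and the share lowest in that normal library was not counted. Summed over the 10 genes, the level was 6820 FPKM in T-ALL and 2442 FPKM in normal Ly6chiF4/80lo, 2075 FPKM in T-ALL and 1228 FPKM in normal Ly6cloF4/80lo, and 2223 FPKM in T-ALL and 1606 FPKM in normal Ly6cloF4/80hi. That sum made up 1.17% of all FPKM in T-ALL Ly6chiF4/80lo and 0.230% to 0.475% in the other 5 libraries. Total FPKM was itself higher in T-ALL, by a ratio of 1.13 in Ly6chiF4/80lo, 1.04 in Ly6cloF4/80lo and 1.16 in Ly6cloF4/80hi. In Ly6cloF4/80hi the ratios of Dnajc3 (1.06), Hspa5 (1.12) and Sdf2l1 (1.15) lay below that of the total. Their shares of total FPKM were thus lower in T-ALL there. In bulk RNA of a sorted gate, fewer cells of a type and less RNA per cell cannot be told apart.

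**Figure D1:**
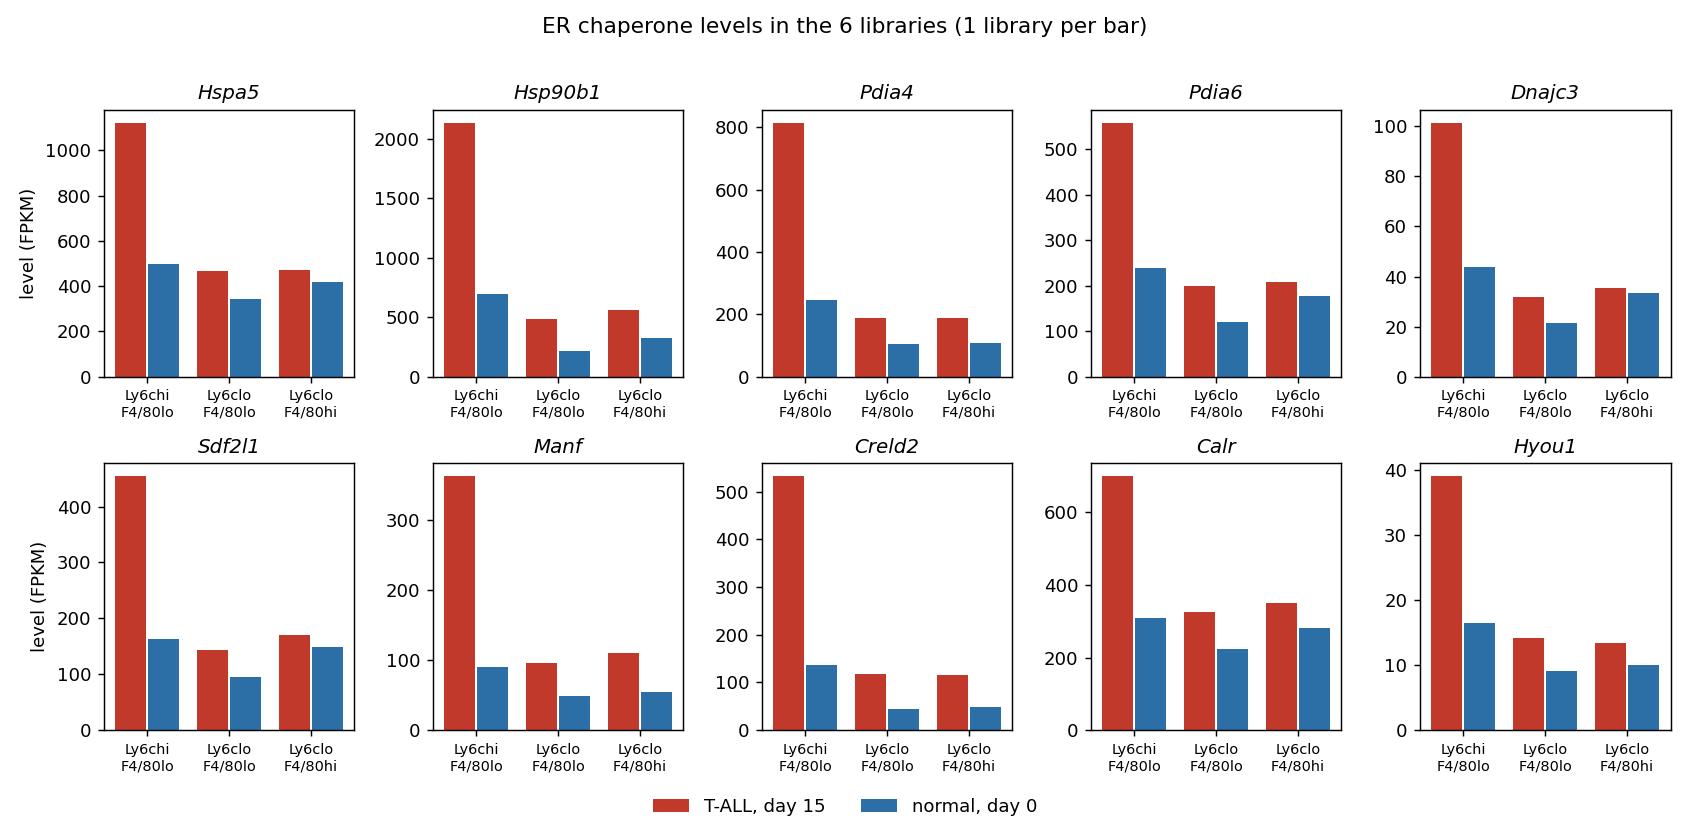
Level of each ER chaperone gene in FPKM (vertical axis, starting at 0, with its own scale in each panel) in the 3 gates, with T-ALL (red) left of normal (blue) and 1 library per bar. In each panel the T-ALL Ly6chiF4/80lo bar is the tallest, at 2134 FPKM for Hsp90b1 and 39.1 FPKM for Hyou1.

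The Hsp70 system comes first. Hspa5 was at 1122, 469 and 472 FPKM in the T-ALL Ly6chiF4/80lo, Ly6cloF4/80lo and Ly6cloF4/80hi libraries, against 497, 342 and 419 FPKM in the normal libraries of the same gates. The T-ALL Ly6chiF4/80lo library stood far above the other 5, and the states overlapped, because normal Ly6chiF4/80lo was above both T-ALL Ly6clo libraries. Over the 3 gates the change was 0.60 (log2, SE 0.25, limma adjusted p = 0.143), which did not pass. Hyou1 (GRP170), a large relative of Hsp70 that exchanges nucleotide on Hspa5, was at 39.1, 14.1 and 13.4 FPKM in T-ALL, against 16.5, 9.17 and 9.98 FPKM in normal, in the same order of gates. It was the lowest of the 10 genes in every library, and again the normal Ly6chiF4/80lo value exceeded both T-ALL Ly6clo values. Its change of 0.72 (SE 0.19, limma adjusted p = 0.0563) fell just short of the threshold.

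Dnajc3 (p58IPK) is a J-domain partner of Hspa5. Its level was 101, 31.9 and 35.4 FPKM in T-ALL, against 43.9, 21.65 and 33.4 FPKM in normal, for Ly6chiF4/80lo, Ly6cloF4/80lo and Ly6cloF4/80hi. The 2 Ly6cloF4/80hi libraries lay close together, a ratio of 1.06, and the states overlapped. Sdf2l1, which joins the J-domain protein Dnajb11 in the Hspa5 cycle, was at 454, 143 and 171 FPKM in T-ALL, against 162, 95.2 and 148 FPKM in normal, with overlap between the states. Neither change passed, at 0.60 (SE 0.22, limma adjusted p = 0.114) for Dnajc3 and 0.75 (SE 0.26, limma adjusted p = 0.1002) for Sdf2l1.

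Hsp90b1 (GRP94) is the Hsp90 of the ER and is needed for the folding of integrins and Toll-like receptors. It was at 2134, 488 and 556 FPKM in T-ALL, against 698, 219 and 325 FPKM in normal, for Ly6chiF4/80lo, Ly6cloF4/80lo and Ly6cloF4/80hi. Within each gate the T-ALL library was the higher one by at least 1.71-fold, while normal Ly6chiF4/80lo stayed above both T-ALL Ly6clo libraries. Hsp90b1 rose by 1.18 (log2, SE 0.23, limma adjusted p = 0.0295). Its level relative to Hspa5 was 1.90 in T-ALL and 1.40 in normal Ly6chiF4/80lo, 1.04 in T-ALL and 0.641 in normal Ly6cloF4/80lo, and 1.18 in T-ALL and 0.774 in normal Ly6cloF4/80hi. Hsp90b1 was thus the most abundant of the 10 in all 3 T-ALL libraries and in normal Ly6chiF4/80lo, and Hspa5 in both normal Ly6clo libraries.

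Calr (calreticulin) binds the sugar chains of new glycoproteins and stores calcium in the ER. Its level was 700.0, 325 and 352 FPKM in T-ALL, against 309.9, 224 and 282 FPKM in normal, in the order of gates used above. The 3 T-ALL values all lay above the 3 normal values, but by little, and the change of 0.68 (SE 0.22, limma adjusted p = 0.0897) did not pass.

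Pdia4 (ERp72) and Pdia6 (P5) are protein disulfide isomerases, which form and reshuffle disulfide bonds. Pdia4 was at 815, 189 and 188 FPKM in T-ALL, against 247, 104 and 107 FPKM in normal, for Ly6chiF4/80lo, Ly6cloF4/80lo and Ly6cloF4/80hi. Both Ly6clo gates had nearly equal levels within each state, and normal Ly6chiF4/80lo was above both T-ALL Ly6clo libraries. Pdia4 rose by 1.13 (log2, SE 0.23, limma adjusted p = 0.0329). Pdia6 was at 559, 200.5 and 209 FPKM in T-ALL, against 239, 119 and 178 FPKM in normal. Its states overlapped in the same way, and its change of 0.73 (SE 0.22, limma adjusted p = 0.0783) did not pass.

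Manf and Creld2 encode small ER proteins that are also secreted under stress. Manf binds Hspa5 and steadies its complexes with clients. It was at 362, 96.1 and 110.45 FPKM in T-ALL, against 90.4, 48.1 and 54.8 FPKM in normal, for Ly6chiF4/80lo, Ly6cloF4/80lo and Ly6cloF4/80hi. Here the states did not overlap, since the lowest T-ALL library was above the highest normal one. Manf rose by 1.32 (log2, SE 0.23, limma adjusted p = 0.0241). Creld2, a disulfide isomerase-like protein, was at 533, 118 and 117 FPKM in T-ALL, against 138, 45.4 and 48.85 FPKM in normal. Normal Ly6chiF4/80lo again exceeded both T-ALL Ly6clo libraries, yet each gate was higher in T-ALL by at least 2.39-fold. Creld2 rose by 1.51 (log2, SE 0.19, limma adjusted p = 0.0110), the largest change of the 10.

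Read against all genes tested, 4 of 10 chaperones rose where 8.2% of the 11616 genes did, and none fell where 3.94% did (limma, adjusted p under 0.05). Because the set was chosen with earlier results known, such shares describe it and do not test it. All 10 had an unadjusted limma p under 0.05. That count cannot be read alone, because the share of all genes at that level was not counted. The share of all genes that were higher in T-ALL in each of the 3 gates was 27.9%, against 10 of 10 here. Levels that did not overlap between states, with T-ALL above normal, were seen for Manf and Calr, which is 2 of 10 where all genes gave 13.8%. The median change of the 10 genes was 0.74, and that of all genes was -0.03. Creld2 passed under 15 of 16 other settings, Manf under 11, Pdia4 under 8 and Hsp90b1 under 7. These settings are not separate checks, since leaving out either library of a gate, or the whole gate, gives the same change. Hsp90b1 and Pdia4 did not pass when either Ly6chiF4/80lo library was left out (Hsp90b1 0.96 and Pdia4 0.83, limma adjusted p = 0.0925 and 0.0619 without the T-ALL one, 0.104 and 0.0711 without the normal one), and none of Hsp90b1, Pdia4 and Manf passed when either Ly6cloF4/80hi library was left out (limma adjusted p from 0.0647 to 0.0859).

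Markers of other cells also differed between states. Of 9 plasma cell markers 7 were higher by the test, and their summed level in T-ALL was 2.56 times that in normal in Ly6chiF4/80lo, 2.25 times in Ly6cloF4/80lo and 4.13 times in Ly6cloF4/80hi. For the chaperone sum the ratios were 2.79, 1.69 and 1.38. In Ly6cloF4/80hi the plasma cell sum was 1623 FPKM in T-ALL and 393 FPKM in normal. The chaperone sum there was 2223 FPKM in T-ALL and 1606 FPKM in normal. These sums start from unlike normal levels, so their ratios cannot be set against each other. In the normal state the plasma cell sum was lower in Ly6cloF4/80hi than in Ly6cloF4/80lo, and the chaperone sum was higher. Also higher by the test were 6 of 7 myeloid progenitor markers and 6 of 6 proliferation markers. The sum over all 7 progenitor markers was 86.65 to 1747 FPKM in T-ALL and 27.5 to 243 FPKM in normal. For the 6 proliferation markers the sum was 433 to 655 FPKM in T-ALL and 81.8 to 108 FPKM in normal. Of 7 erythroid markers 4 rose, with sums of 705, 4684 and 31768 FPKM in T-ALL, against 712, 460 and 4052 FPKM in normal, for Ly6chiF4/80lo, Ly6cloF4/80lo and Ly6cloF4/80hi. None of the 6 neutrophil markers rose or fell over the gates, but in Ly6chiF4/80lo, where the chaperone ratios were largest, their sum was 43359 FPKM in T-ALL and 12963 FPKM in normal, a ratio of 3.34. In the Ly6clo gates it was lower in T-ALL, at 88.8 and 187 FPKM, against 359 and 306 FPKM in normal. Of the 7 macrophage markers none rose and 2 fell, Mertk and Fcgr1, and the macrophage sum was 814 to 1414 FPKM in T-ALL and 928 to 3179 FPKM in normal. The chaperone sum divided by the plasma cell marker sum was 0.464 in T-ALL and 0.425 in normal Ly6chiF4/80lo, 1.22 in T-ALL and 1.63 in normal Ly6cloF4/80lo, and 1.37 in T-ALL and 4.09 in normal Ly6cloF4/80hi. The part of these cells in the chaperone changes was not tested.

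**Figure D2:**
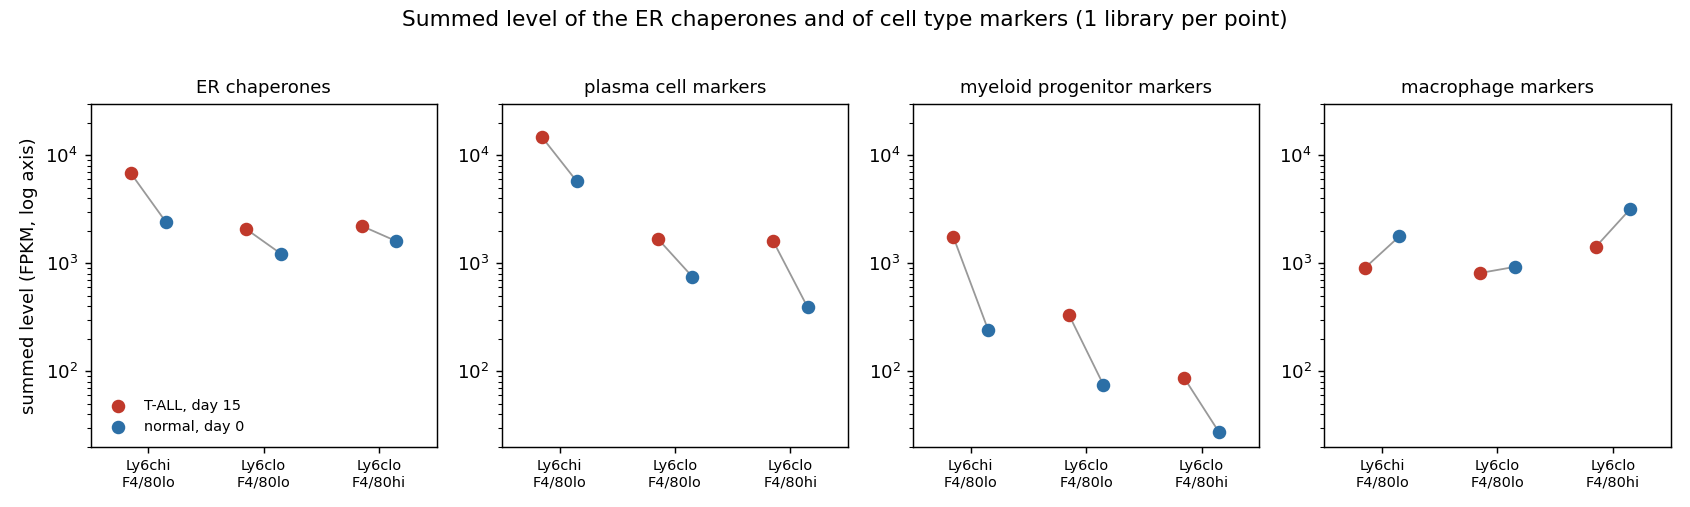
Summed level in FPKM (log axis) of the 10 ER chaperones, 9 plasma cell, 7 myeloid progenitor and 7 macrophage markers in each gate, with T-ALL (red) left of normal (blue), 1 library per point and a line joining the states of a gate. Chaperone, plasma cell and progenitor sums were higher in T-ALL in each gate, and macrophage sums were lower.

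Within a gate there was 1 library per state, so ratios are given without a test. In Ly6chiF4/80lo all 10 genes were at least 2-fold higher in T-ALL, where 7.51% of 8371 genes of at least 5 FPKM were, and plain FPKM ratios ran from 2.26-fold for Hspa5 to 4.01-fold for Manf. The median log2 difference there was 1.35. In Ly6cloF4/80lo the median was 0.66 and the genes at or above 2-fold on the log2(FPKM + 1) scale were Hsp90b1 and Creld2, 2 of 10 against 5.69% of 8767 genes. In Ly6cloF4/80hi the median was 0.36, from 0.08 for Dnajc3 to 1.24 for Creld2, and Creld2 alone reached 2-fold on the same scale, 1 of 10 against 10.8% of 8905 genes. Manf lay at that line in both Ly6clo gates. Its plain FPKM ratio was 1.997 in Ly6cloF4/80lo and 2.01 in Ly6cloF4/80hi, and the pseudocount of 1 puts the Ly6cloF4/80hi value just under 2-fold. No chaperone was 2-fold lower in any gate, where 4.46%, 1.52% and 6.54% of genes were in Ly6chiF4/80lo, Ly6cloF4/80lo and Ly6cloF4/80hi. The state difference was largest in Ly6chiF4/80lo for each of the 10 genes, and the share of all genes for which this held was not counted.

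Whether the state change differed between gates was tested with an interaction term, a choice made after the data had been seen. The change in Ly6chiF4/80lo exceeded that of the other 2 gates for all 10 genes. On the log2 scale it did so by 0.645 for Creld2 to 1.09 for Sdf2l1, with SEs from 0.29 to 0.50. The median difference over all genes was -0.08, and the share of all genes above 0 was not counted. None of the 10 passed (limma adjusted p from 0.556 to 0.861), and of all 11616 genes 0% passed in either direction. At an unadjusted limma p under 0.05 there were 3, Dnajc3, Sdf2l1 and Manf. This number cannot be read alone either, as the share of all genes was not counted. The fit has 1 residual degree of freedom, and a p that misses the threshold does not show that the gates changed alike. For Ly6cloF4/80hi against the other gates the differences ran from -0.83 to -0.41, and none passed (limma adjusted p from 0.879 to 0.913), where 0.00861% of all genes, 1 gene, were lower. For Ly6cloF4/80lo they ran from -0.51 to 0.02, and none passed.

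**Figure D3:**
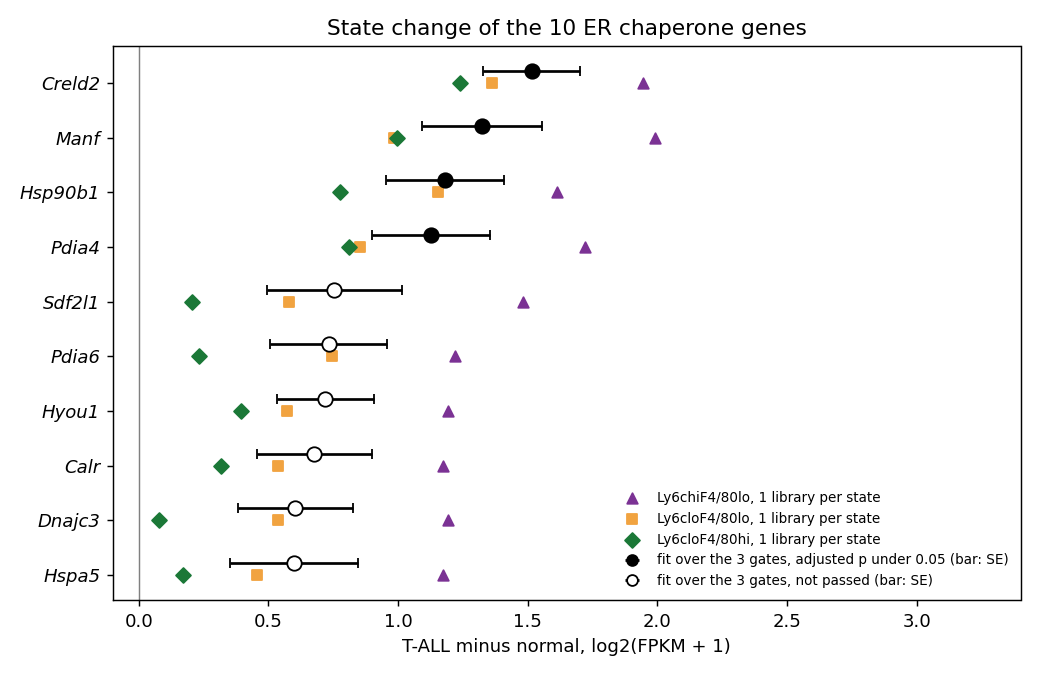
T-ALL minus normal difference in log2(FPKM + 1) for each ER chaperone (horizontal axis), as the single-library difference in each gate (triangles, squares, diamonds) and as the fit over the 3 gates with its SE (circles, filled where adjusted p is under 0.05). The triangles for Ly6chiF4/80lo lie farthest right in each row, and the filled circles are Creld2, Manf, Hsp90b1 and Pdia4.

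Between gates, the chaperones were lower in both Ly6clo gates than in Ly6chiF4/80lo. In Ly6cloF4/80hi against Ly6chiF4/80lo, 5 of 10 were lower by the test, where 5.68% of all genes were, and none was higher, where 7.1% were. They were Creld2 (-1.83, limma adjusted p = 0.00610), Pdia4 (-1.65, limma adjusted p = 0.0165), Hsp90b1 (-1.52, limma adjusted p = 0.0211), Manf (-1.21, limma adjusted p = 0.0434) and Hyou1 (-1.07, limma adjusted p = 0.0334). The other 5, Hspa5, Calr, Sdf2l1, Pdia6 and Dnajc3, differed by -0.94 to -0.56 and did not pass (limma adjusted p from 0.0746 to 0.226). The median over the 10 was -1.01, and over all genes 0.12. Without the T-ALL Ly6chiF4/80lo library Creld2 alone of these 5 passed, and the same held without either of the Ly6cloF4/80hi libraries.

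In Ly6cloF4/80lo against Ly6chiF4/80lo, 3 of 10 were lower by the test, where 2.05% of all genes were, and none was higher, where 2.68% were. These were Hsp90b1 (-1.90, limma adjusted p = 0.0243), Creld2 (-1.87, limma adjusted p = 0.0155) and Pdia4 (-1.67, limma adjusted p = 0.0314). The remaining 7 differed by -1.40 to -0.79 with a limma adjusted p from 0.0503 for Manf to 0.143 for Calr. Both comparisons use the same 2 Ly6chiF4/80lo libraries. Without the T-ALL one, none of the 3 passed in Ly6cloF4/80lo, with Creld2 at -1.55 and a limma adjusted p of 0.0514. None passed without the normal Ly6cloF4/80lo library either (limma adjusted p from 0.0572 to 0.0901).

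Ly6cloF4/80hi and Ly6cloF4/80lo differed little from each other in these genes. Differences ran from 0.01 for Pdia4 to 0.44 for Sdf2l1, and none passed (limma adjusted p from 0.508 to 0.983, none at an unadjusted p under 0.05), where 2.66% of all genes were higher and 0.904% lower. Levels therefore ordered by gate with Ly6chiF4/80lo on top, and the order of the Ly6clo gates was within the error of the fit. In 7 of 10 genes both Ly6chiF4/80lo libraries lay above all 4 Ly6clo libraries, where 8.39% of all genes did. The exceptions were Manf, Calr and Sdf2l1, whose normal Ly6chiF4/80lo level was below at least 1 T-ALL Ly6clo library. The T-ALL Ly6chiF4/80lo library was the highest of the 6 for 10 of 10 genes, where 11.8% of all genes had their highest level there. Plasma cell markers were lower in both Ly6clo gates as well, 7 of 9 by the test in Ly6cloF4/80hi and 8 of 9 in Ly6cloF4/80lo, and neutrophil markers summed to 88.8 to 359 FPKM in the Ly6clo libraries, against 12963 FPKM or more in the Ly6chiF4/80lo ones. Their part in the gate differences was not tested.

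Other genes of the ER were described by list. Of 24 other ER folding factors 5 rose and none fell between states, with a median of 0.52. They were the prolyl isomerases Fkbp11 (2.33, limma adjusted p = 0.00898) and Fkbp2 (0.83, limma adjusted p = 0.0365), the disulfide isomerase Txndc5 (1.25, limma adjusted p = 0.0260), and the J-domain proteins Dnajb11 (0.93, limma adjusted p = 0.0308) and Dnajc10 (0.71, limma adjusted p = 0.0241). Txndc5 and Fkbp11, and Derl3 named next, are also on the plasma cell list. Of 19 genes of ER-associated degradation, which returns misfolded protein to the cytosol, 3 rose and none fell: Derl3 (1.84, limma adjusted p = 0.00832), Edem1 (0.92, limma adjusted p = 0.0487) and Ube2j1 (0.84, limma adjusted p = 0.0407).

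Translocation and glycosylation, by which new chains enter the ER and receive sugars, had the most calls. There 16 of 26 genes rose and none fell, with a median of 0.81. Sec61b, a subunit of the translocation channel, was at 783, 267 and 265 FPKM in T-ALL, against 246, 180.4 and 108 FPKM in normal, and rose by 1.17 (limma adjusted p = 0.0345). Rpn1, a subunit of the oligosaccharyl transferase, rose by 1.12 (limma adjusted p = 0.0211). Of 20 genes of ER to Golgi traffic 4 rose and none fell, among them Kdelr1 (1.20, limma adjusted p = 0.0440) and Kdelr2 (0.97, limma adjusted p = 0.0218), receptors that return chaperones with a KDEL tail to the ER. The other 2 were the cargo receptor Lman1 (1.21, limma adjusted p = 0.0167) and the coat subunit Copb2 (0.60, limma adjusted p = 0.0493).

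Regulators of the unfolded protein response showed no common direction. Of 14, 2 rose and none fell, and the median was 0.01. Xbp1 was at 1438, 255 and 256 FPKM in T-ALL, against 539, 131 and 149.69 FPKM in normal, for Ly6chiF4/80lo, Ly6cloF4/80lo and Ly6cloF4/80hi. Normal Ly6chiF4/80lo lay above both T-ALL Ly6clo libraries, as for most chaperones, and Xbp1 rose by 1.05 (limma adjusted p = 0.0278). Gene-level values do not separate its spliced and unspliced forms. Creb3l2, an ER-anchored factor related to ATF6, rose by 1.05 (limma adjusted p = 0.0471). Ppp1r15a (GADD34), a target of the PERK arm, was at 60.4, 56.9 and 104 FPKM in T-ALL, against 95.2, 153 and 129 FPKM in normal, a change of -0.79 that did not pass (limma adjusted p = 0.0704).

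**Figure D4:**
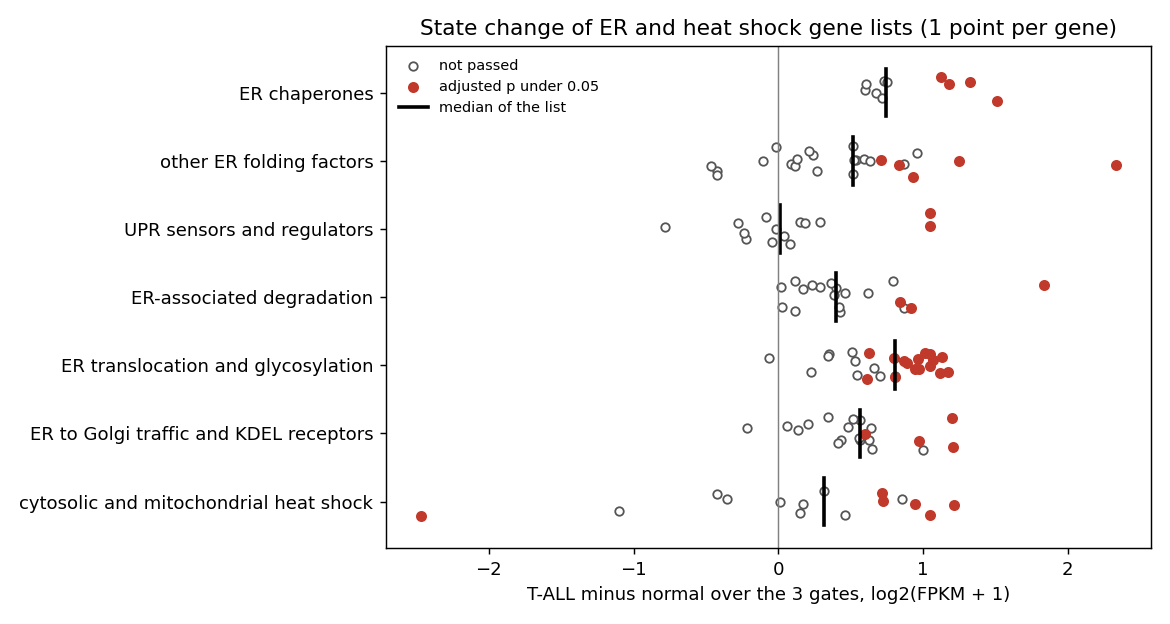
T-ALL minus normal change over the 3 gates in log2(FPKM + 1) (horizontal axis) of each tested gene in 7 lists, 1 point per gene, filled red where adjusted p is under 0.05, with a bar at the median of the list. All 10 ER chaperones lie right of 0 with a median of 0.74, and the regulators of the unfolded protein response centre on 0.01.

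Across the 6 libraries the 10 genes followed nearly the same pattern. Pearson's r between pairs, on log2(FPKM + 1), ran from 0.928 to 0.998 with a median of 0.974 over 45 pairs, given as a description because all pairs share 6 libraries. The 8 other genes most like the mean of the 10 were P4hb (r = 0.999), Calu (0.998), Stt3a (0.997), Yipf5 (0.996), Hdlbp (0.995), Rnf5 (0.992), Ssr4 (0.992) and Ergic1 (0.992), and 1.42% of 7608 genes of at least 10 FPKM in 1 library had an r over 0.95. P4hb, the founding disulfide isomerase, was at 401, 184 and 184 FPKM in T-ALL, against 203, 129 and 150.2 FPKM in normal. It shows the same order as the chaperones, with the T-ALL Ly6chiF4/80lo library far above the rest.

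Counting error was small beside the changes that passed, but not beside the smallest differences. For Dnajc3 in Ly6cloF4/80hi, with a ratio of 1.06 between states, it was 2.52% in T-ALL and 2.71% in normal. The lowest value, Hyou1 in normal Ly6cloF4/80lo, rested on about 324 fragments (counting error 5.56%), and the highest, Hsp90b1 in T-ALL Ly6chiF4/80lo, on about 40772 (0.50%), so spread between libraries sets the precision. Whether counting used the strand is not given in the sources used here. In the GENCODE M21 annotation Manf overlaps Rbm15b on the same strand and Dcaf1, Gm37612 and 4930524O07Rik on the other. Hsp90b1 overlaps Gm15344 and Gm25745 on the same strand and 1810014B01Rik on the other, Pdia4 overlaps Mir704 on the same strand, and Pdia6 overlaps Atp6v1c2 on the other. Calr has a pseudogene, Calr-ps. Reads of these genes and of their partners may not be fully separated.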

How the data were processed

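Expression was measured by RNA sequencing of total RNA from 6 sorted fractions (RNeasy Mini kit and Illumina HiSeq, per the labels' protocols). The authors deposited FPKM per Entrez gene, and the submitters' processing notes name Bowtie2 2.2.5 and RSEM (RSEM version, build and annotation not given in the sources used here). Genes a file does not list were set to 0. Symbols came from a RefSeq table (16017 of 16058 matched).

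In R 4.3.3, limma 3.58.1 (statmod 1.5.0) fitted state and gate to log2(FPKM + 1) of all 6 libraries for 11616 genes, with a trended, robust prior and 2 residual degrees of freedom (median total 6.23). A pseudocount understates changes of low genes. Gate contrasts came from the same fit. Tests were two-sided, with Benjamini-Hochberg adjustment over all tested genes and a threshold of 0.05. An exact test of 3 against 3 libraries could not go below p = 0.1. The interaction fit (1 residual degree of freedom, median total 5.52) was added after the data had been seen. Tested on simulated libraries, the fit recovered most changed genes, but its share of false calls lay above the nominal threshold, so calls near it are less certain than their adjusted p.

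Depth was estimated from the spacing of low FPKM values in 151 to 187 genes per library, using GENCODE M21 transcript lengths. It covers counting error only. Python 3.11.15, numpy 2.4.6, pandas 2.3.3 and matplotlib 3.10.9 were used.

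The 10 genes and the 15 other gene lists were chosen with earlier results of these data known. Named beside the 10 were up to 4 members of a list with the largest state change (at least 5 FPKM in 1 library), all that passed where 5 or fewer did, 6 cell type checks and the 8 genes most like the set. Alternatives were a pseudocount of 0.1, no filter, a filter on mean FPKM (5 or more), median-ratio and quantile scaling, no trend or robust prior, no gate or state block, and each library or gate left out.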

Additional observations from a re-analysis of the deposited data

How the results depend on the processing

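No paired analysis was possible because the labels give no replicate numbers, and gate or state is the block in the fit as reported. Without a filter on low values, genes called fell to 370 from 1410 between states, to 867 from 1485 for Ly6cloF4/80hi against Ly6chiF4/80lo, to 156 from 549 for Ly6cloF4/80lo against Ly6chiF4/80lo and to 173 from 414 for Ly6cloF4/80hi against Ly6cloF4/80lo, and chaperones called to 1, 3, 1 and 0. Without the block the counts of all genes were 161, 197, 0 and 0, and no chaperone was called. A pseudocount of 0.1 gave 6 chaperones called in Ly6cloF4/80lo against Ly6chiF4/80lo in place of 3. With each library left out in turn, all genes called ranged over 283 to 923, 617 to 1277, 81 to 718 and 127 to 668 in the same order of comparisons, chaperones called over 1 to 4, 1 to 7, 0 to 7 and 0 to 0, and the chaperones' median change over 0.49 to 1.01, -1.41 to -0.63, -1.76 to -0.87 and -0.056 to 0.48. The state change of the 10 genes stayed above 0 in all 16 settings. As each gene was higher in T-ALL in every gate, leaving out a library or gate could not turn the sign. Signs turned only for Ly6cloF4/80hi against Ly6cloF4/80lo, where no chaperone was called under any setting. Without the normal Ly6cloF4/80hi library this held for the median (-0.056), Hspa5 (-0.17), Pdia4 (-0.22), Pdia6 (-0.058), Dnajc3 (-0.019), Manf (-0.054), Creld2 (-0.16), Calr (-0.046) and Hyou1 (-0.22), and without the T-ALL Ly6cloF4/80lo library for Pdia4 (-0.19), Manf (-0.064), Creld2 (-0.072) and Hyou1 (-0.089). The highest values of these genes with a library left out were 0.47 for Hspa5, 0.25 for Pdia4, 0.69 for Pdia6, 0.77 for Dnajc3, 0.45 for Manf, 0.25 for Creld2, 0.49 for Calr and 0.27 for Hyou1. Scaling moved the median state change of all genes by little, to -0.04 and -0.06 with median-ratio and quantile scaling, against -0.03 as reported. Hsp90b1 did not pass with quantile scaling (0.82, limma adjusted p = 0.0586). Fits that leave out a library have fewer samples, and the cause of the other shifts was not tested.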

Other observations

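Heat shock proteins outside the ER did not move as one group. Of 15 cytosolic and mitochondrial genes 5 rose and 1 fell between states, with a median of 0.32, and none differed by the test between either Ly6clo gate and Ly6chiF4/80lo. Hspa1a, the stress-inducible cytosolic Hsp70, was at 15.6, 19.9 and 9.43 FPKM in T-ALL, against 196, 53.4 and 56.5 FPKM in normal, for Ly6chiF4/80lo, Ly6cloF4/80lo and Ly6cloF4/80hi. Its states did not overlap, and it fell by 2.47 on the log2 scale (limma adjusted p = 0.0207). The mitochondrial chaperonins went the other way, with Hspe1 at 1.22 (limma adjusted p = 0.0163) and Hspd1 at 1.05 (limma adjusted p = 0.0262). So did the mitochondrial Hspa9 (0.73, limma adjusted p = 0.0343) and the cytosolic Hsph1 (0.95, limma adjusted p = 0.0228) and Stip1 (0.72, limma adjusted p = 0.0475).

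Of 15 tested genes that ATF4, the factor downstream of PERK, is known to drive, 7 rose, 1 fell (Sesn2) and 7 did not pass between states, where 8.2% of all genes rose and 3.94% fell. The list's 4 largest changes were as follows. Asns, which makes asparagine, was at 31.8, 45.8 and 69.95 FPKM in T-ALL, against 8.29, 3.25 and 4.53 FPKM in normal, and rose by 2.99 (limma adjusted p = 0.0116). Unlike the chaperones it was highest in T-ALL Ly6cloF4/80hi. The serine pathway genes Psat1 (1.997, limma adjusted p = 0.00832), Phgdh (1.70, limma adjusted p = 0.0113) and Shmt2 (1.35, limma adjusted p = 0.0116) rose too. Sesn2, a stress-induced inhibitor of mTORC1, fell by 0.79 on the log2 scale (limma adjusted p = 0.0266). Of 9 tested genes outside the set whose promoter holds the exact ER stress response element, 1 rose (Derl3) and 1 fell (Xlr3b, -1.12, limma adjusted p = 0.0154), with a median of 0.14. Hspa9, Hsph1, Stip1, Sesn2 and Xlr3b were named after their values were seen.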
